A study of Mus musculus with 6 samples.

Results

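The 10 members are Ctgf, Cyr61, Nov and Wisp2 of the CCN family, together with Postn, Tnc, Spp1, Sparc, Sparcl1 and Fn1, chosen by an exact match of their symbols among the 31055 features of a single-cell RNA sequencing matrix. Each was found once. The tissue was the ascending aorta with its root, taken from 6 mice (female, 129 background, 16 weeks of age), 1 mouse per library, dissociated and sequenced with 10x Genomics 3' chemistry. By their labels, 4 were control (CTL) and 2 were LDS mice, a model of Loeys-Dietz syndrome. Of the controls, 2 were Tgfbr1+/+ and 2 were Tgfbr1+/+ with the alleles Wnt2CRE and EGFP-L10a. Both LDS mice were Tgfbr1M318R/+, heterozygous for an altered TGF-β type I receptor. The matrix separates the cells only by a library number from 1 to 6. The sources used here do not pair these numbers with mice, so control and LDS mice were not compared and every value is given per library.

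Matricellular proteins are secreted into the extracellular matrix but act mainly as modulators: they bind collagens, growth factors, proteoglycans and cell surface integrins rather than bearing load. In the arterial wall many of them are made by vascular smooth muscle cells (VSMCs) and adventitial fibroblasts, and several are known for their induction in injury, stretch or TGF-β signaling. Ctgf (Ccn2) and Cyr61 (Ccn1) are classical targets of TGF-β and of the mechanosensitive YAP and TEAD regulators, Nov is Ccn3 and Wisp2 is Ccn5, the CCN protein that lacks the C-terminal domain of its relatives.

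All 10 are annotated as protein-coding genes in GENCODE M21 on mm10, with Ctgf at chr10:24595442-24598683, + strand, Cyr61 at chr3:145646976-145649981, - strand, Nov at chr15:54745702-54754039, + strand, and Wisp2 at chr2:163820861-163833146, + strand. Postn lies at chr3:54361109-54391037, + strand, Tnc at chr4:63959785-64047015, - strand, Spp1 at chr5:104435118-104441050, + strand, and Fn1 at chr1:71585520-71653200, - strand. Sparc lies at chr11:55394500-55423183, - strand, and Sparcl1, a gene of the same family, at chr5:104079111-104113733, - strand, on the chromosome that also holds Spp1.

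The RefSeq promoter windows on GRCm38.p6, 250 bases before to 50 after a gene's start, held entries for 5 of the 10 members (Cyr61, Postn, Tnc, Spp1 and Sparc). The windows nearest to the GENCODE start are shown for 4 members whose clusters stand out below: Postn and Tnc, both low in the same VSMC cluster, Cyr61, which was high in another, and Spp1, which was high in few cells. Capitals mark matches to the motifs GGAATG (bound by TEAD factors), TGANTCA (AP-1), AACCAC (RUNX) and the SRF CArG box, searched on both strands.
Postn promoter, chr3:54360857-54361156, + strand, no match: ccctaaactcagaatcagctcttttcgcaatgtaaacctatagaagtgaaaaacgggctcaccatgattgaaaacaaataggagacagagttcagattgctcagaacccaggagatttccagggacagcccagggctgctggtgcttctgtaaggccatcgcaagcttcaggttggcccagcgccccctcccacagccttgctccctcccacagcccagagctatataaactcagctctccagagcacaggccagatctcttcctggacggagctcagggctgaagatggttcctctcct
Tnc promoter, chr4:64046966-64047265, - strand, no match: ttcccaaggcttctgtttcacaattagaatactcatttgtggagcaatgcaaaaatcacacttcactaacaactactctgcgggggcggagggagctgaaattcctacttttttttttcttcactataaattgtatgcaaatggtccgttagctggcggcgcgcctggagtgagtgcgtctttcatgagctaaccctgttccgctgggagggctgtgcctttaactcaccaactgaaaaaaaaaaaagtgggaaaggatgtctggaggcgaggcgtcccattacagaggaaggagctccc
Cyr61 promoter, chr3:145649936-145650235, - strand, GGAATG on the opposite strand: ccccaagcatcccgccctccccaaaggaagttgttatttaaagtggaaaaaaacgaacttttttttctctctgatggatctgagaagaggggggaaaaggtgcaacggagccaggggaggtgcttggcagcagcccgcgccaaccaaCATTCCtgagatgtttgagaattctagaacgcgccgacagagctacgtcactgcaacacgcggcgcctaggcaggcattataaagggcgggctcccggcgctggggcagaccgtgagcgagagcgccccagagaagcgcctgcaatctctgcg
Spp1 promoter, chr5:104434861-104435160, + strand, AACCAC: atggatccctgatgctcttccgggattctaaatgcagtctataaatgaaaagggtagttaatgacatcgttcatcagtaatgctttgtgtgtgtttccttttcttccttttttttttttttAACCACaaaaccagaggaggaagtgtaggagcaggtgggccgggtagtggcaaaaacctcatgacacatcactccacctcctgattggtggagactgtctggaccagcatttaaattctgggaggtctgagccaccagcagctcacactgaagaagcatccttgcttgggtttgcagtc
The Cyr61 match begins 103 bases before the start, and 14.7% of all 32851 promoter windows held GGAATG. The Spp1 match begins 129 bases before the start, and 13% of all windows held AACCAC. The AP-1 motif was in 7.81% and the CArG box in 1.63% of all windows, and neither was in the windows shown.

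After filtering, 24972 cells remained, 1863 to 6395 per library, with 18218282 to 38105145 unique molecular identifiers (UMIs, each counting 1 captured transcript) per library and a median of 5572 to 9838 UMIs per cell. By their markers, 10049 cells were smooth muscle-like and 13095 fibroblast-like. There were also 555 endothelial-like, 351 macrophage-like, 161 other leukocyte-like and 53 glia-like cells. Another 708 cells, in 3 subclusters of which over 50% of the cells had a top doublet score, were left out of all classes. Of the 24896 barcode sequences that passed the filter, 76 occurred in more than 1 library. Levels below are UMIs of a gene scaled to 1000000 UMIs in total (CPM), summed over the cells of a class in a library, and a row of 6 levels is in the order of libraries 1 to 6. A log2 ratio is taken within each library and given as the median over libraries with its range. Smooth muscle markers summed to 54249 to 74176 CPM in the smooth muscle-like clusters and 771 to 2014 CPM in the fibroblast-like ones, and fibroblast markers to 995 to 2652 and 25564 to 51341 CPM. Control and LDS mice are mixed among the 6 libraries, so a spread between libraries cannot be told apart from genotype.

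The members showed 3 patterns across the 2 large classes (see the plot of levels by class). Nov, Sparcl1, Postn and Tnc were higher in smooth muscle-like cells, Wisp2 and Spp1 were higher in fibroblast-like cells, and Ctgf, Cyr61, Sparc and Fn1 were not called either way. By the rule used a gene was called where its ratio had the same sign in every library and its median was at least 2-fold. It called 2 of 10 members higher in fibroblast-like cells, against 14% of the 8719 genes at 10 CPM or more in either class. It called 4 of 10 lower, against 9.82% of those genes. Spp1 reached 10 CPM only in fibroblast-like cells and Tnc only in smooth muscle-like cells, so these 2 entered the comparison through the class where they were high. No p-value was computed, because the genotype behind each library is unknown and the 6 libraries are therefore not replicates.

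**Figure D1:**
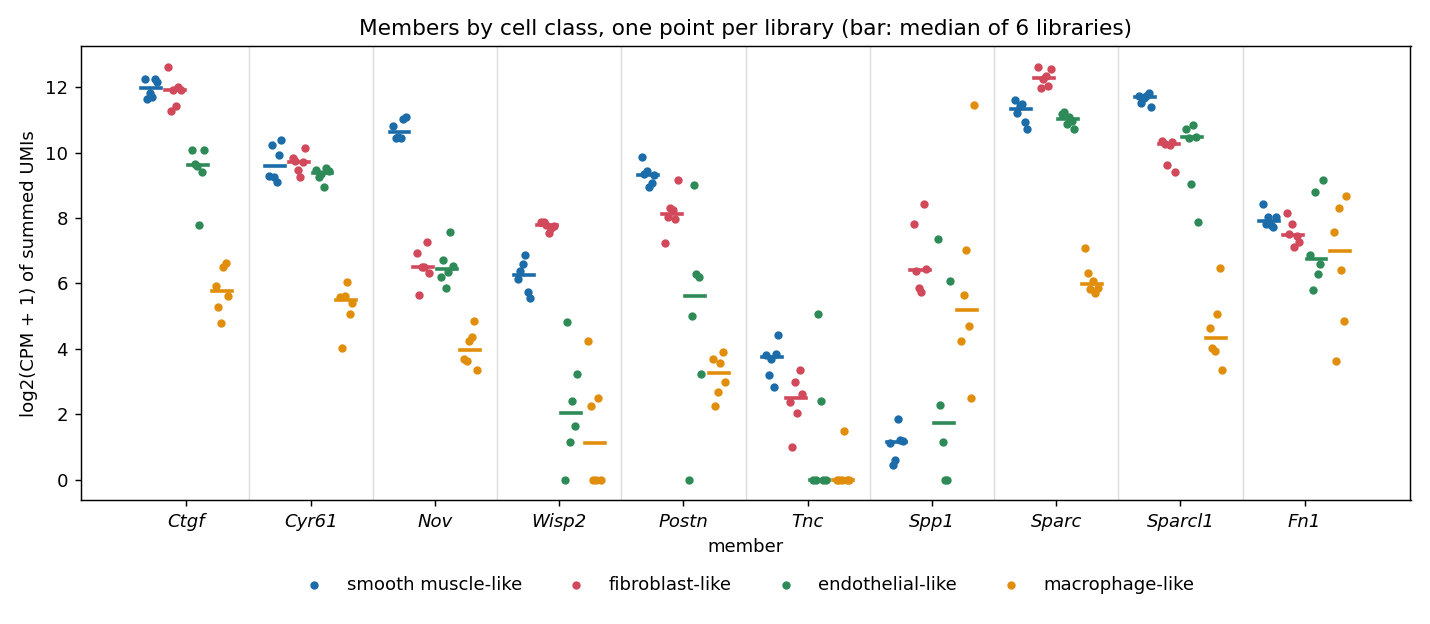
Level of each member, as log2(CPM + 1), in the 4 classes with at least 10 cells in every library. Each point is 1 library and each bar the median of 6 libraries. Nov and Sparcl1 were separated between smooth muscle-like and fibroblast-like cells in all 6 libraries, while Ctgf and Cyr61 overlapped.

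Among the CCN genes, Nov, which encodes a regulator of VSMC proliferation, lay mainly in smooth muscle-like cells: 90.5% of its UMIs were counted there. Its level there was 1789.6, 1408, 1432, 1411, 2085 and 2175 CPM. In fibroblast-like cells it was 122, 49.2, 89.3, 90.4, 152 and 79.1 CPM. The 2 classes did not overlap, with a median log2 ratio of -3.98 (range -4.84 to -3.78, n = 6) of fibroblast-like over smooth muscle-like cells. Wisp2 went the other way. It stood at 234, 234, 219.6, 187, 207 and 217 CPM in fibroblast-like cells. In smooth muscle-like cells it was at 68.7, 82.5, 96.0, 115, 52.0 and 45.8 CPM. The lowest fibroblast value lay above the highest smooth muscle value, with a median log2 ratio of 1.64 (range 0.70 to 2.24, n = 6). Ctgf was at 4885, 3226, 3648, 3325, 4922 and 4532 CPM in smooth muscle-like cells. The fibroblast-like values were 6246, 2467, 3869, 2750.3, 4104 and 3881 CPM. Fibroblasts were the higher class in 2 of 6 libraries, and the median log2 ratio was -0.24. Cyr61 was at 624, 1198, 615, 545, 969 and 1349 CPM in smooth muscle-like cells. Its fibroblast-like levels of 922, 852, 704, 611, 839.5 and 1131 CPM were higher in 3 of 6 libraries, with a median log2 ratio of -0.02 (range -0.49 to 0.56, n = 6). Neither gene thus had 1 direction between the classes.

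Postn encodes periostin, which binds collagen and integrins and is typical of developing connective tissue and cardiac valves. It was at 927, 652, 691, 494, 542 and 630.3 CPM in smooth muscle-like cells. The fibroblast-like levels were 149, 259.8, 313, 300.5, 252 and 574 CPM. Smooth muscle was the higher class in every library, but by little in library 6, giving a median log2 ratio of -1.12 (range -2.63 to -0.14, n = 6). Tnc, which encodes the large adhesion-modulating glycoprotein tenascin-C, was near the limit of detection in both, at 6.18 to 20.4 CPM in smooth muscle-like and 1.00 to 9.20 CPM in fibroblast-like cells. It was lower in fibroblasts in 6 of 6 libraries, with a median log2 ratio of -1.30 (range -2.97 to -0.54, n = 6). Without library 1, 2 or 6 the Tnc median was -0.97 and no longer met the 2-fold rule.

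Spp1 encodes osteopontin, an integrin and CD44 ligand of mineralizing tissue and activated macrophages. In smooth muscle-like cells only 99 Spp1 UMIs were counted in all, at 0.37 to 2.63 CPM. Fibroblast-like cells held 82.8% of its UMIs, at 223, 81.9, 57.3, 52.6, 345 and 85.3 CPM. That is a spread of several-fold between libraries of the same class. Fibroblasts were higher in 6 of 6 libraries, with a median log2 ratio of 7.10 (range 4.31 to 7.98, n = 6). Only 3.16% of fibroblast-like cells had a Spp1 UMI, so the level of the class rests on few of its cells.

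Of the SPARC family, Sparc encodes a collagen-binding protein needed for collagen fibril assembly. It was at 6346, 4063, 4877, 5195, 4207 and 5973 CPM in fibroblast-like cells. Smooth muscle-like cells had 3145, 2383, 2742, 2889, 1959 and 1684 CPM. Fibroblasts were higher in every library, yet the median log2 ratio of 0.93 fell short of the 2-fold rule. Sparcl1 encodes hevin, its closest relative, and showed the opposite direction. Its smooth muscle levels were 3385, 2953, 3239, 3397, 3626 and 2692 CPM. In fibroblast-like cells they were 1319, 1223, 779, 1216, 1295 and 683 CPM, with a median log2 ratio of -1.48 (range -2.05 to -1.27, n = 6). Fn1 encodes fibronectin, the adhesive scaffold on which many matrix proteins assemble. It was at 341, 223, 263, 219, 211 and 262 CPM in smooth muscle-like cells. The fibroblast-like levels of 285, 181, 225, 139, 175 and 154 CPM were lower in 6 of 6 libraries, with a median log2 ratio of -0.28 (range -0.77 to -0.23, n = 6), so the direction was uniform and the difference small.

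**Figure D2:**
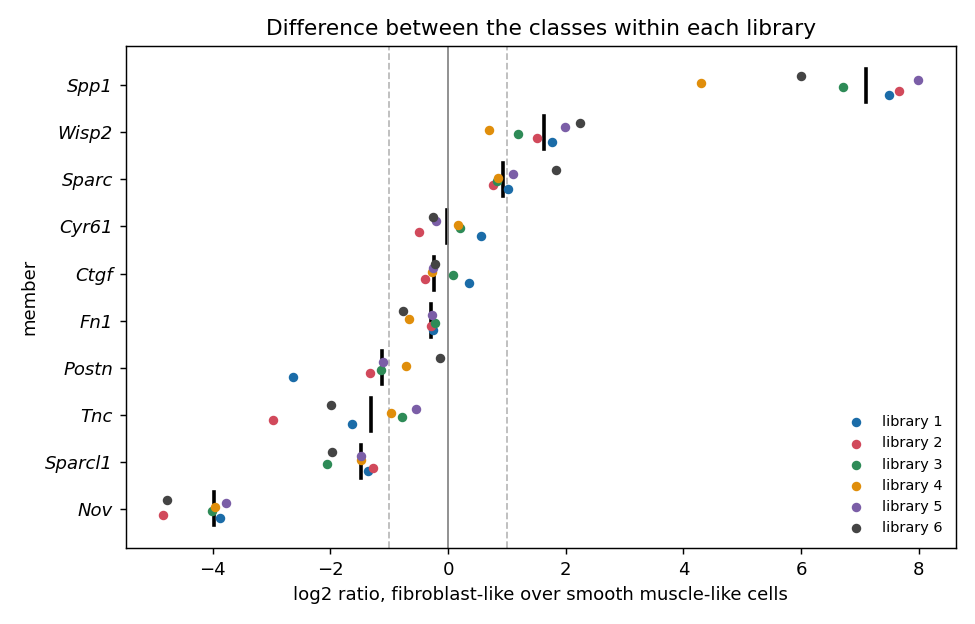
Log2 ratio of each member in fibroblast-like over smooth muscle-like cells within each library (points, 6 libraries) with the median (black bar). Dashed lines mark 2-fold. Nov reached at most -3.78 and Spp1 at least 4.31, and the points of Ctgf and Cyr61 lie on both sides of 0.

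Free RNA in the suspension gives UMIs in cells that do not express a gene. Among other leukocyte-like cells, which should lack these transcripts, 17.4% had a Ctgf UMI, 23.6% a Sparc UMI and 4.97% a Nov UMI, at a median of 3716 UMIs per cell. Against that background, Nov was found in 95.4% of cells (95% exact interval 95.0 to 95.8%, 91.7% after thinning) of the smooth muscle-like and 26.4% of cells (95% exact interval 25.7 to 27.2%, 16.8% after thinning) of the fibroblast-like class, at medians of 7194 and 6082 UMIs per cell, where thinning drew 3000 UMIs from each cell. The Nov share in fibroblasts was thus above the leukocyte share and the 5.70% of macrophage-like cells. It was not set apart from that of endothelial-like cells, at 23.8% (17.8% after thinning). The part of free RNA in these shares was not tested. Wisp2 was found in 26.4% of cells (95% exact interval 25.7 to 27.2%, 21.0% after thinning) of the fibroblast-like class and 24.7% of cells (95% exact interval 23.8 to 25.5%, 14.7% after thinning) of the smooth muscle-like class, against 1.24% of the leukocytes. The 2 shares lay closer together than the CPM. The Spp1 share was 3.16% in fibroblast-like and 0.61% in smooth muscle-like cells, and 12.4% of the other leukocyte-like cells, a class that held a Spp1-positive cluster described below. In the clusters of other leukocyte-like cells, 6.25 to 47.8% of cells had a top doublet score. The part of doublets in the leukocyte shares was not tested. Intervals cover counting error only.

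The lists of genes that work with the members were counted in the same comparison of classes, where the median log2 ratio of all genes tested was 0.02. Of all genes tested, 14% were called higher and 9.82% lower. Matricellular relatives had 9 higher and 0 lower among 12 of 22 genes tested, median log2 ratio 1.94, from Tgfbi (7.29) and Smoc2 (5.41) to Fstl1 (0.40) and Smoc1 (-0.10, not called). Fibrillar matrix partners, the collagens, elastin and small proteoglycans, had 13 higher and 0 lower among 16 of 17 genes tested, median log2 ratio 1.89. Dcn (6.06) and Fbln1 (5.57) led them, and Lox (-0.04) and the elastin gene Eln (-0.69) stood last without a call. Dcn and Lum of this list were also among the markers used to name the fibroblast-like class, so their direction follows from that naming. The receptors of matricellular proteins had 3 higher and 7 lower among 15 of 21 genes tested, median log2 ratio -0.73. The integrin genes Itga8 (-4.83) and Itga4 (-3.33) were the lowest, and the endocytic receptor gene Lrp1 (2.12) and Itgb8 (1.25) the highest. YAP and TEAD genes and targets had 3 higher and 4 lower among 17 of 20 genes tested, median log2 ratio 0.19. The tissue factor gene F3 (6.01) and Gadd45b (2.08) were at 1 end and Ankrd1 (-2.48) and Crim1 (-2.29) at the other. TGF-β response genes had 4 higher and 1 lower among 16 of 16 genes tested, median log2 ratio 0.31, with Bhlhe40 (3.48) and Tgif1 (1.90) highest and Tgfb2 (-0.85) and Tgfb1i1 (-1.72) lowest. Dissociation response genes, the immediate-early and heat shock genes that tissue digestion is known to induce, had 10 higher and 1 lower among 24 of 24 genes tested, median log2 ratio 0.79. Nfkbia (2.31) and Ier3 (2.30) were highest, Klf6 (-0.42) and Hspb1 (-2.29) lowest. The lipid-associated macrophage genes had 4 higher and 1 lower among 8 of 10 genes tested, median log2 ratio 0.91, with Gpnmb (5.05) and Apoe (4.89) highest and Cd9 (-0.02) and Lgals3 (-2.22) lowest.

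Smooth muscle-like cells fell into 9 clusters, named here by up to 3 leading genes (without the members, the lists and unnamed gene models). The members and lists were kept out of the genes used for clustering, but the clusters were drawn from these same cells, so each cluster is described against the other cells of its class and not tested. Of the 10 members, 9 reached 10 CPM in a cluster or the rest of the class, and Spp1 did not. Over the 9 clusters the rule made 6 calls, where 0.948 to 6.59% of all genes tested were called per cluster. Of the 6 calls, 2 were of Tnc as lower, in clusters where it was under 10 CPM and was tested only through the other cells.

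The cluster led by Pgam2, Gja4 and Olfr558 (1396 cells) stood out for Postn and Tnc. The phospholamban gene Pln and the matricellular relative Thbs1 were also among its 5 leading genes. The rule called 2 of 9 members tested there, against 6.59% of 7950 genes. Of these, Tnc reached 10 CPM only in the other smooth muscle-like cells, so it entered the count through the side where it was high. Postn was at 314, 165, 139.7, 112, 126 and 166 CPM. Its highest library lay below the lowest library of every other smooth muscle cluster, and a median log2 ratio of -2.23 (range -2.43 to -1.65, n = 6) set it under the rest of the class. Tnc was at 0.52 to 5.24 CPM from 18 UMIs, against a median of 13.5 CPM in the other cells, and was lower in 6 of 6 libraries, with a median log2 ratio of -3.26 (range -4.99 to -1.26, n = 6). At a clustering resolution of 0.5 its ratio was -3.29 and no longer met the rule. Sparc (log2 ratio -0.85, range -1.13 to -0.66) and Nov (log2 ratio -0.64, range -0.89 to -0.06) were also lower in every library, below 2-fold. Cyr61, Wisp2 and Fn1 were higher in every library, Cyr61 with a median log2 ratio of 0.80 (range 0.34 to 1.23, n = 6). The dissociation response genes made up 2.72% of its UMIs, more than in 7 of the other 8 clusters, and their part in the Cyr61 level was not tested.

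The cluster with Igfbp2 and Akap5 among its leading genes (290 cells) was at the other end for the same genes, and it had the highest level of Ptprz1. Postn was at 1686, 1137, 1274, 830.1, 1269 and 1242 CPM. The 6 libraries were above the rest of the class, with a median log2 ratio of 0.95 (range 0.77 to 1.29, n = 6), just under the 2-fold rule. Fn1 was at 761, 544, 497, 439, 691 and 448 CPM, with a median log2 ratio of 1.16 (range 0.82 to 1.82, n = 6), and was the 1 of 9 members tested that was called, against 1.76% of genes. Ctgf, Sparc and Wisp2 were also higher in 6 of 6 libraries, below 2-fold. Tnc was higher in 4 of 6 libraries, at 3.46 to 38.8 CPM, so its libraries did not share 1 direction. Cells of this cluster had a median of 11579 UMIs, the deepest of the 9.

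Cyr61, an immediate-early gene, had medians from 356 to 1642 CPM over the smooth muscle clusters. It was highest in the cluster led by Cfd, Car3 and Mt1, with Socs3 and Atf3 among its first 5 genes (1150 cells, 588 of them in library 5). Its level there was 1442, 1549, 1799, 983, 1734 and 2210.2 CPM, and the other cells of the class had a median of 658 CPM. All 6 libraries were higher, with a median log2 ratio of 1.06 (range 0.39 to 1.83, n = 6). Cyr61 was the 1 of 9 members called, against 0.948% of genes. In the same cluster the dissociation response genes had 13 higher and 0 lower among 24 of 24 genes tested, median log2 ratio 1.11. They made up 3.26% of UMIs, against 1.15% in the largest cluster. Among cells below their library's median share of those genes, the Cyr61 ratio was 0.80. Without library 1, 3 or 5 it was 0.97. In both cases it no longer met the rule, and the part of dissociation in the Cyr61 level was not tested. The largest cluster, led by Ccdc42, Tes and Vstm2b (3126 cells), had Cyr61 at 429, 1124, 243, 332, 393 and 1119.7 CPM. It was lower than the rest of its class in every library (log2 ratio -0.90, range -1.75 to -0.13), with libraries 2 and 6 well above the other 4. Those were also the libraries with the most UMIs per smooth muscle-like cell (medians of 12253 and 10789.5, against 6204 to 9116 in the others), and the part of depth was not tested.

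**Figure D3:**
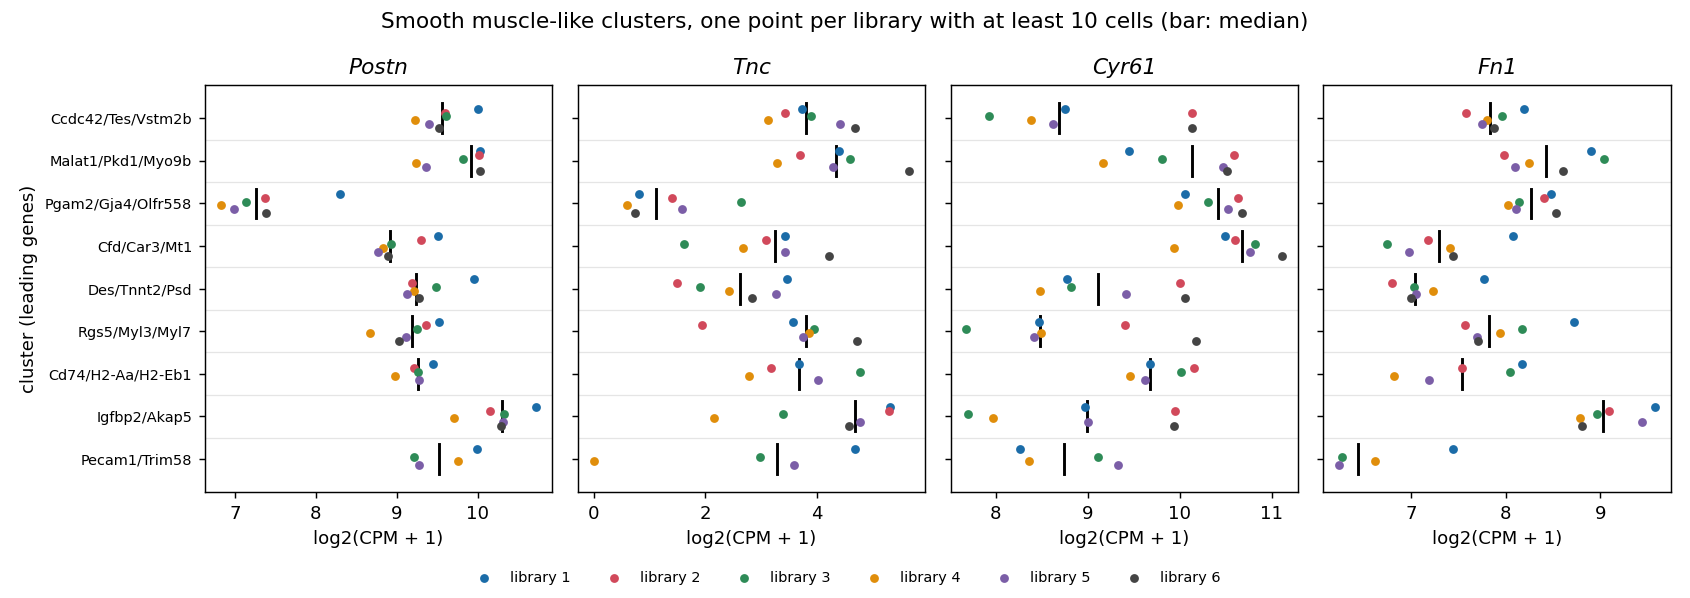
Postn, Tnc, Cyr61 and Fn1, as log2(CPM + 1), in the 9 smooth muscle-like clusters. Each point is 1 library with at least 10 cells of the cluster and each bar the median. Postn and Tnc are lowest in the Pgam2/Gja4/Olfr558 cluster, and Postn and Fn1 are highest in the Igfbp2/Akap5 cluster.

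The other clusters differed less. In the cluster led by Malat1 (1611 cells, median 4055 UMIs, the shallowest), 0 of 9 members were called, against 1.69% of genes. Its median mitochondrial share was 6.53%, against 3.08 to 4.14% in the other smooth muscle clusters, and the part of cell quality was not tested. All of Ctgf, Cyr61, Nov, Postn, Tnc, Sparcl1 and Fn1 were higher there in 6 of 6 libraries, Ctgf with a median log2 ratio of 0.64 (range 0.42 to 0.78, n = 6). The median over all genes tested was itself 0.17 in this cluster, and Nov (0.14) and Sparcl1 (0.19) lay close to it. The cluster led by Des, Tnnt2 and Psd (1088 cells) had 1 of 9 called, against 0.976%: Tnc was lower, with a median log2 ratio of -1.27 (range -2.30 to -0.43, n = 6), and without library 2, 3 or 6 the value was -0.70, and at a resolution of 0.2 it was -0.36. Tnc was at a median of 5.25 CPM there and 13.4 CPM in the other cells, so it was tested only through the side where it was high. The small cluster led by Pecam1 and Trim58 (168 cells) had 1 of 9 called, against 1.62%. Fn1 was lower in the 4 libraries with enough cells, with a median log2 ratio of -1.35 (range -1.82 to -0.99, n = 4). For the remaining clusters, 0 of 9 were called: against 1.61% of genes in the Ccdc42, Tes and Vstm2b cluster, 1.86% in the cluster with high Rgs5 (796 cells) and 1.25% in the MHC class II cluster led by Cd74 (424 cells). The Rgs5 cluster had pericyte markers at 4416 CPM in sum and also held cardiomyocyte markers, at 443 CPM in sum against 2.90 to 26.1 CPM in the Igfbp2 and Pgam2 clusters, and their part in its values was not tested. Sparcl1 and Nov had the narrowest spread of cluster medians. From the highest to the lowest cluster the median of Sparcl1 ran from 3659 to 2581 CPM and that of Nov from 1972 to 1271 CPM. None of the 8 neighbouring pairs in the order of Nov levels had 1 cluster above the next in every library.

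Fibroblast-like cells fell into 11 clusters, over which the rule made 32 member calls. All genes were also called more often here than among most smooth muscle clusters, at 2.33 to 10.5% per cluster, so the totals of the 2 classes are not compared. Tnc reached 10 CPM in 1 of the 11 comparisons, so 9 of 10 members were tested in the others. Spp1 was called lower in 6 clusters, each set against a rest that held the 1 cluster where it was highest. Its median was under 10 CPM in each of the 6, so it was tested only through that rest and could hardly be called other than lower. The member counts given below for these clusters include it.

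**Figure D4:**
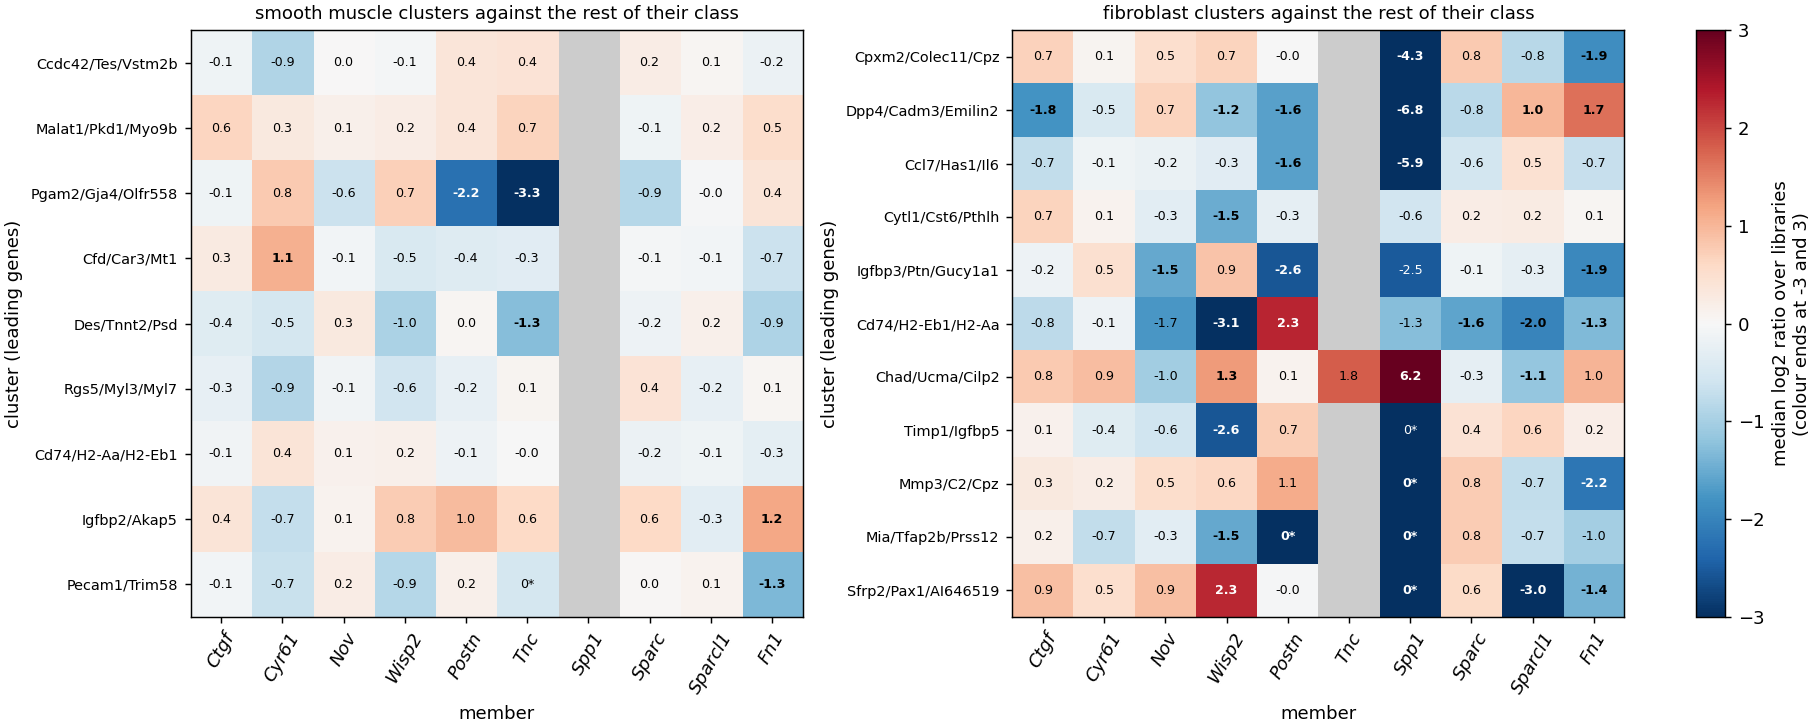
Median log2 ratio over libraries of each member in each cluster against the other cells of its class, with smooth muscle-like clusters on the left and fibroblast-like clusters on the right. Bold numbers mark calls (same sign in every library and at least 2-fold), grey marks members under 10 CPM on both sides, and 0* marks a cluster without a UMI of that member in at least 1 library. There are 6 calls in the 9 clusters on the left, where 0.948 to 6.59% of all genes were called, and 32 in the 11 clusters on the right, where 2.33 to 10.5% were.

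The cluster with the highest Spp1 was led by Chad, Ucma and Cilp2 (810 cells), genes known from cartilage, with Comp also high. Its Spp1 level was 3375, 1194, 134, 389.6, 2934 and 2447 CPM. The other fibroblasts had a median of 27.6 CPM, and the cluster was higher in 6 of 6 libraries, with a median log2 ratio of 6.25 (range 1.45 to 8.34, n = 6). The transcripts were not spread over the cluster. A Spp1 UMI was found in 12.2% of its cells in library 3 and 50.0% in library 6, the lowest and highest share, and in each library the 5 cells richest in Spp1 held 60.1 to 99.0% of them. The single highest cell, in library 5, had 1652 Spp1 UMIs. The level in CPM thus rests on few cells per library. Wisp2 was also called higher, at 509, 802, 333, 200.4, 450.4 and 768 CPM, with a median log2 ratio of 1.28 (range 0.11 to 2.01, n = 6), which was 0.84 and not called with all genes kept in the clustering features. Sparcl1 was called lower (log2 ratio -1.15, range -1.72 to -0.71), and without library 1, 2 or 5 its value was -0.90, and in cells of low dissociation share -0.98. In all, 3 of 10 members tested were called, against 6.5% of genes. Ctgf and Cyr61 were higher in 6 of 6 libraries, below 2-fold, Cyr61 at 2095, 1399, 1039, 963, 1797 and 2271 CPM. Tnc was tested only here, at 2.98 to 99.4 CPM, and was higher in 5 of 6 libraries.

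The cluster led by Cd74, H2-Eb1 and H2-Aa (816 cells), with Coch and Wif1 also high, had the highest median Postn of the fibroblast clusters. Postn was at 1651, 908, 1285, 946, 1000.2 and 992 CPM. It was higher in 6 of 6 libraries, with a median log2 ratio of 2.29 (range 0.94 to 3.77, n = 6). By contrast Wisp2 (log2 ratio -3.12, range -3.59 to -1.99), Sparcl1 (log2 ratio -1.99, range -3.12 to -1.35), Sparc (log2 ratio -1.59, range -2.52 to -0.35) and Fn1 (log2 ratio -1.33, range -5.17 to -0.64) were lower in every library. Thus 5 of 9 members were called, against 10.5% of genes, the largest background share of any cluster. Leukocyte markers summed to 4.96 CPM in these cells, within the range of the other fibroblast clusters (3.18 to 6.20 CPM). A top doublet score was found in 5.15% of them, against 1.45 to 5.29% in the other fibroblast clusters. Library 1 held 19 of the 816 cells. The part of leukocyte RNA or doublets in these values was not tested. Among cells below their library's median dissociation share, the Sparc ratio was -0.59 and the Fn1 ratio -1.18, and neither was called any longer.

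Dpp4, Cadm3 and Emilin2 led the second largest cluster (2932 cells), which also had the highest Ly6a and Cd248 among its 5 leading genes, both markers of adventitial progenitor-type fibroblasts. Spp1, tested only through the other fibroblasts, was 1 of the 6 of 9 members called there, against 5.78% of genes. By that count this cluster had the most members called. Its Fn1 median was the highest of the fibroblast clusters, with levels of 592, 413, 442, 343, 202 and 528 CPM and a median log2 ratio of 1.66 (range 0.28 to 2.64, n = 6). Sparcl1 was also higher, at a median log2 ratio of 1.01 (range 0.74 to 1.22, n = 6), which was 0.99 without library 3, 4 or 6, 0.53 at a resolution of 0.5 and 0.56 with all genes kept in the clustering features. Ctgf was at 1853, 724, 808, 1015, 1543 and 2089 CPM. In 5 of 6 libraries this was the lowest Ctgf level of any fibroblast cluster, with a median log2 ratio of -1.79 (range -2.52 to -1.01, n = 6). Postn (log2 ratio -1.64, range -2.66 to -1.01), Wisp2 (log2 ratio -1.19, range -2.53 to -0.71) and Spp1 (median 1.33 CPM, range 0.78 to 7.76) were lower in every library. At a resolution of 0.2 the Postn ratio was -0.67 and not called. A cluster led by Ccl7, Has1 and Il6 (1768 cells) resembled it in Postn, which was lower with a median log2 ratio of -1.64 (range -2.32 to -0.35, n = 6), and in Spp1 (median 2.73 CPM, range 0.49 to 9.27). There 2 of 9 were called, against 2.44%. It had the highest dissociation share of the fibroblast clusters, at 3.57% of UMIs.

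The largest cluster, led by Cpxm2, Colec11 and Cpz (3137 cells), had 2 of 9 members called, against 4.93% of genes. Fn1 (log2 ratio -1.86, range -2.51 to -1.57) and Spp1 (median 8.05 CPM, range 1.75 to 11.8) were lower, while Ctgf, Sparc and Wisp2 were higher in 6 of 6 libraries, below 2-fold. Another cluster, led by Mmp3, C2 and Cpz (586 cells), likewise had Fn1 (log2 ratio -2.17, range -2.56 to -0.67) and Spp1 (median 1.31 CPM, range 0 to 17.2) lower, 2 of 9 called against 2.39%. It differed in Postn, at 278, 252, 741, 692, 854 and 1033 CPM. Here the ratio to the other fibroblasts was above 0 in 5 of 6 libraries, so it was not called.

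Wisp2 was highest in the small cluster led by Sfrp2 and Pax1 (196 cells), at 1034, 1331, 728, 704, 1243 and 1023 CPM. No library of another fibroblast cluster reached its median, and a median log2 ratio of 2.27 (range 1.79 to 2.70, n = 6) set it above the rest. Ctgf and Sparc also had their highest fibroblast medians there, at a median of 7370.4 CPM (range 4719 to 10161) and a median of 7766 CPM (range 6479 to 11273). Sparcl1 was lowest there, at 163, 345, 137, 157, 42.7 and 66.9 CPM, and below the rest in 6 of 6 libraries. Fn1 (log2 ratio -1.42, range -2.96 to -0.72) and Spp1 were lower too, and the Fn1 ratio was -0.90 and not called at a resolution of 0.5. The 4 of 9 members called, 1 of them Spp1, which was tested only through the other fibroblasts, stand against 5% of genes. Spp1 had 6 UMIs in the cluster and none in 4 of 6 libraries, so no fold is given.

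In the cluster led by Mia, Tfap2b and Prss12 (276 cells), Postn was nearly undetected. Over 5 libraries 13 UMIs were counted, at 0, 7.02, 0, 11.4 and 14.9 CPM in libraries 1, 2, 3, 4 and 6, against a median of 305 CPM in the other fibroblasts. Wisp2 (log2 ratio -1.53, range -2.50 to -0.65) and Spp1 (median 7.43 CPM, range 0 to 15.8) were lower as well, 3 of 9 called against 5.94%. Postn and Spp1 had medians under 10 CPM in this cluster, so both were tested only through the other fibroblasts. Sparc was high, at a median of 7635 CPM (range 4378 to 14538), in the same cells. Igfbp3, Ptn and Gucy1a1 led a cluster (830 cells) with 3 of 9 called, all lower, against 3.66%. These were Postn (at 20.4, 49.7, 16.4, 62.9, 112 and 96.2 CPM), Fn1 (median 52.6 CPM, range 39.6 to 63.8) and Nov (median 34.6 CPM, range 21.5 to 41.9). Wisp2 and Cyr61 were higher there in 6 of 6 libraries, below 2-fold.

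The last clusters shared low Wisp2. In the cluster with Timp1 and Igfbp5 among its leading genes (784 cells) it was at a median of 37.3 CPM (range 27.6 to 115) and was the 1 of 9 members called, against 2.33%, with a median log2 ratio of -2.57 (range -3.07 to -0.98, n = 6). In the cluster led by Cytl1, Cst6 and Pthlh (960 cells) it was at a median of 86.0 CPM (range 64.7 to 135), again the only call, against 2.4%, with a median log2 ratio of -1.49 (range -1.98 to -0.65, n = 6). Spp1 was second highest in the latter, at 209, 21.6, 314, 135, 71.3 and 43.3 CPM. It overlapped the cartilage-gene cluster, where library 3 was lower than here. Tnc was at 4.20, 5.41, 42.9, 12.3, 87.4 and 0 CPM in the Timp1 cluster. Libraries 3 and 5 were high and library 6 had no UMI, a spread as wide as that in the cartilage-gene cluster.

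**Figure D5:**
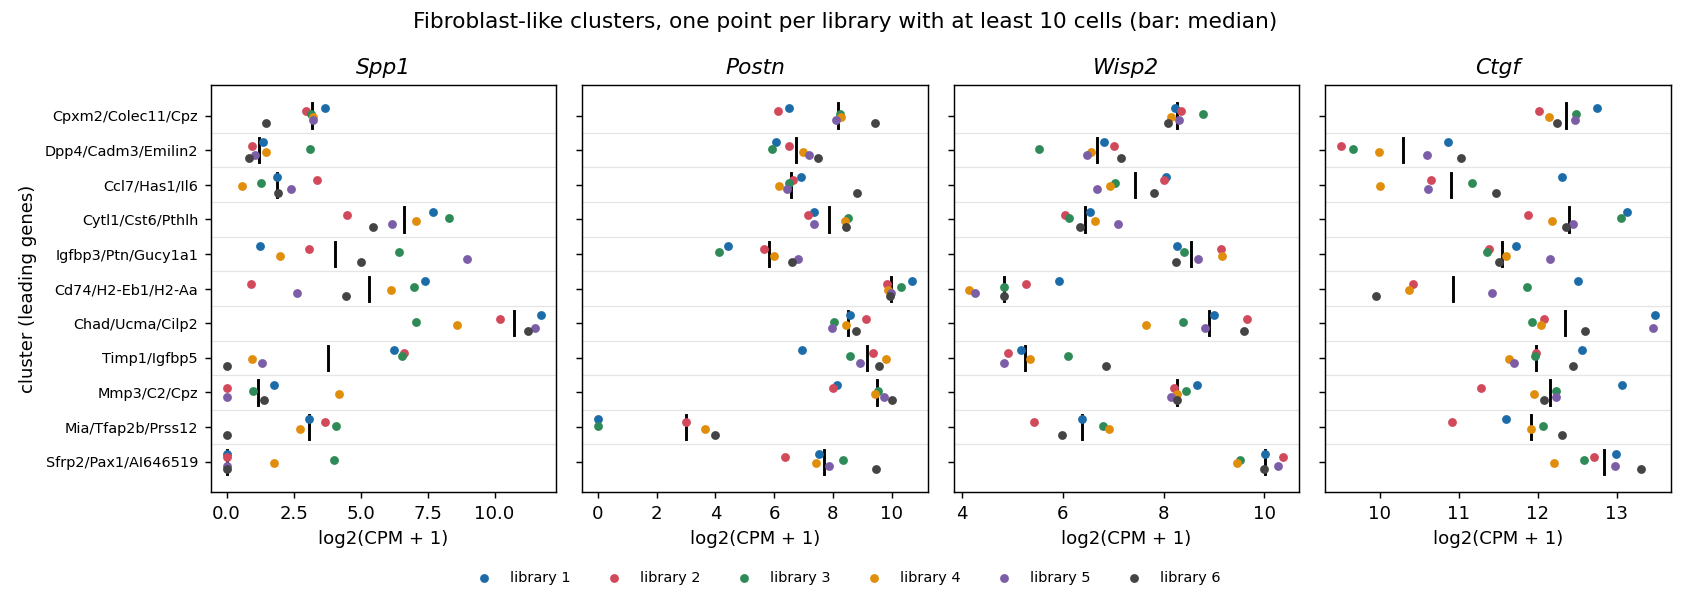
Spp1, Postn, Wisp2 and Ctgf, as log2(CPM + 1), in the 11 fibroblast-like clusters. Each point is 1 library with at least 10 cells of the cluster and each bar the median. Spp1 peaks in the Chad/Ucma/Cilp2 cluster, Postn in the Cd74/H2-Eb1/H2-Aa cluster and Wisp2 in the Sfrp2/Pax1/AI646519 cluster, and Ctgf is lowest in the Dpp4/Cadm3/Emilin2 cluster.

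In endothelial-like cells Sparc was at 2312, 2442, 1864, 2161, 2014 and 1689 CPM, a range that overlapped that of smooth muscle-like cells. A Sparc UMI was found in 87.7% of them, at a median of 4433 UMIs per cell. Sparcl1 was at 1703, 1399, 531, 1826, 1440.0 and 233 CPM. These lay below smooth muscle-like cells in every library. They came mainly from the cluster led by Rgs5, Fabp4 and Ly6c1 (313 cells), where Sparcl1 was at a median of 2232 CPM (range 1774 to 2830.4), while it was at a median of 13.4 CPM (range 0 to 26.2) in the cluster led by Mmrn1, Reln and Pdpn, known from lymphatic vessels (112 cells). The Rgs5 gene also marks pericytes, whose markers summed to 2281 CPM in the former, and their part was not tested. Another endothelial-like cluster, led by Procr, Enpp2 and Fst (50 cells, 39 of them in library 3), had Postn at 1149, Fn1 at 749 and Tnc at 50.8 CPM in that library. These are the values of 1 library with 10 or more of its cells. Cyr61 was at a median of 671 CPM (range 495 to 737) in endothelial-like cells, close to the large classes, and Ctgf at a median of 784 CPM (range 221 to 1091), lower than both in every library.

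Macrophage-like cells had Spp1 at 17.8, 49.3, 129, 25.1, 4.66 and 2788 CPM. Library 6 stood apart, and 10 of its 51 macrophages held the 1211 UMIs, 89.8% of them in 5 cells. The same library held all 30 cells of a leukocyte cluster led by Stfa2l1, Cyp4f18 and Retnlg, genes of neutrophils, with Spp1 at 2243 CPM from 223 UMIs. Of the 10 lipid-associated macrophage genes, 3 were higher in library 6 macrophages than in every other library: Apoe (at 6196 CPM against 1427 to 5765), Fabp5 (at 389 CPM against 44.9 to 138) and Gpnmb, at 4.605 CPM from very few UMIs and at 0 in the others. Lpl and Mmp12 were lower than in every other library, Mmp12 at 203 CPM against 549.9 to 953. Cd63, Cd9, Ctsd, Lgals3 and Trem2 lay within the range of the other libraries. The share of all genes highest or lowest in library 6 is not given here, so these counts are not read as a result. Fn1 was at 189, 11.4, 319, 84.4, 27.9 and 409.8 CPM in macrophages, again with a wide spread. In the 53 glia-like cells, pooled over libraries, Sparc was at 7310.1 and Postn at 579.7 CPM, from 1387 and 110 UMIs.

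The genes most like each member were sought by Pearson correlation of the median log2(CPM + 1) over 25 cell populations, among 11897 genes at 10 CPM or more in at least 1 of them. Ctgf was closest to Bgn (r = 0.97), Fam26e (r = 0.97) and Foxs1 (r = 0.96), Sparc to Serpinh1 (r = 0.97), Lrig3 (r = 0.96) and Tbc1d8b (r = 0.93) and Nov to Lpp (r = 0.97), Slmap (r = 0.97) and Dstn (r = 0.96). Wisp2 was closest to Slc7a2 (r = 0.95), Itgbl1 (r = 0.95) and Omd (r = 0.94), Cyr61 to Cask (r = 0.95), Abca5 (r = 0.94) and Stoml1 (r = 0.94) and Sparcl1 to Atp8b1 (r = 0.91) and Enah (r = 0.90). The coefficients were lower for the remaining members: Postn with Gm6634 (r = 0.88), Myrf (r = 0.85) and Ereg (r = 0.83), Tnc with Fjx1 (r = 0.85), Kcnj15 (r = 0.85) and Tmem117 (r = 0.84), Spp1 with Prkar1b (r = 0.81), Gm29157 (r = 0.80) and 9330159F19Rik (r = 0.79) and Fn1 with Ppme1 (r = 0.76), Vps37c (r = 0.76) and Uchl1 (r = 0.75). The populations share libraries, so these values are descriptions without a test.

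Within single cells thinned to 3000 UMIs, Ctgf and Cyr61 were the pair of members with the highest rank correlation in both classes. The Spearman coefficient, as the median over 6 libraries, was 0.24, range 0.19 to 0.40, in smooth muscle-like and 0.31, range 0.25 to 0.38, in fibroblast-like cells. In smooth muscle-like cells Postn and Sparc followed, at 0.22, range 0.20 to 0.27, and Cyr61 and Postn had the lowest value of any pair, at -0.14, range -0.17 to -0.02. In fibroblast-like cells Ctgf went with Sparc (0.28, range 0.21 to 0.31) and Wisp2 (0.27, range 0.24 to 0.34), and against Sparcl1 (-0.21, range -0.33 to -0.05). Cells of a library share their source and the counts are sparse, so these are descriptions, and coefficients near 0 are not read.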

How the data were processed

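Single cell suspensions of the ascending aorta and root of 6 mice were captured separately with 10x Genomics 3' v3 chemistry. Per the labels and the study's methods, the authors aligned the reads to mm10 and aggregated the libraries with Cell Ranger 6 (the matrix header names another version). The values are the deposited UMI counts per gene and barcode, as whole numbers without normalization. Whether aggregation evened out depth is not given in the sources used here.

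Cells were kept with 1000 to 5000 genes, 1500 to 25000 UMIs and under 20% mitochondrial UMIs (24972 of 30716 barcodes). In R 4.3.3 with Seurat 5.3.0 and sctransform 0.4.2, libraries were normalized with SCTransform, integrated by reciprocal PCA over 30 components and clustered at a resolution of 0.25, then at 0.3 within smooth muscle and fibroblast cells. The members and listed genes (140 in all) were left out of the clustering features. Classes were named from markers fixed for this purpose. Scrublet (scanpy 1.11.5) called 0.089 to 1.92% of cells, under 0.5% of a library of over 5000 cells at its lowest, so the top 6% of scores per library were used instead, and the 3 subclusters in which over 50% of cells were in that share were left out, a choice made after seeing the data.

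UMIs were summed per library and population and divided by the total (CPM). To each side of a log2 ratio 0.5 UMI was added, scaled to its total. A gene was tested at a median of 10 CPM or more on either side, in at least 3 libraries with 10 cells each, and called at the same sign in every such library and a median log2 ratio of at least 1 in size. Library precision follows from the depth given above, and counting intervals are exact binomial. No p-value was computed. The rule was checked on simulated data. Genotypes were not compared, since barcode numbers could not be paired with mice.

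Named genes were the 10 members, the 2 highest and 2 lowest tested genes of each list, the 3 genes most like each member and the 5 leading genes of each cluster. Some genes that this rule names are not reported here. The values in library 6 macrophages and of the Procr cluster were chosen after they were seen. The members and lists were chosen with earlier results of these data known. The 20 alternatives tried cover normalization, clustering features and resolution, doublets, mitochondrial filter, prior, weighting of cells, dissociation share, low values, thinning and each library left out, and 3 of them (shared barcodes, doublet-rich subclusters, the Malat1 cluster) were added after seeing the data.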

Additional observations from a re-analysis of the deposited data

Results flagged for a closer look

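In 40 groups of 6 libraries (10 members in 4 classes), 9 had a library whose gap to the nearest other, divided by the whole range, was above Dixon's 95% critical value for 6 samples. Chance flags about 1 in 20 groups of normally distributed values. Sparse counts are not such values, since a few UMIs against 0 exceed the limit by construction, so the number of groups is not read against that share. All 9 were high values in endothelial-like or macrophage-like cells, the smaller classes, and none was in smooth muscle-like or fibroblast-like cells.

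In endothelial-like cells, Nov in library 5 was at 191 CPM, the next highest being 105. Wisp2 in library 2 was at 27.1 CPM, the next highest being 8.32. Postn in library 3 was at 516 CPM, the next highest being 77.8, and Tnc in the same library was at 32.4 CPM, the next highest being 4.32. Library 3 held 39 of the 50 cells of the endothelial-like cluster led by Procr, Enpp2 and Fst, in which Postn was at 1149 and Tnc at 50.8 CPM.

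In macrophage-like cells, Spp1 in library 6 was at 2788 CPM, the next highest being 129, and 89.8% of its Spp1 UMIs lay in 5 cells. Wisp2 in library 1 was at 17.8 CPM, the next highest being 4.66, Sparc in library 1 at 136 CPM, the next highest being 79.6, and Sparcl1 in library 5 at 88.5 CPM, the next highest being 32.3. Tnc in library 4 was at 1.79 CPM, and it was listed at 0 in the other 5 libraries. Macrophage-like cells numbered 30 to 104 per library, so several of these values rest on few UMIs.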

How the results depend on the processing

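Between fibroblast-like and smooth muscle-like cells, 2 members were higher and 4 lower, and leaving out 1 library at a time gave 2 to 3 and 3 to 4, and the cells below their library's median dissociation share gave 3 and 3. The calls among smooth muscle clusters (6) ranged from 4 to 9 and those among fibroblast clusters (32) from 33 to 36 when 1 library was left out. The number of members with the highest median in fibroblast-like cells (4) ranged from 3 to 5. The 2077 genes called between the classes became 4836 without a filter on low values, since more genes then enter, and were 2055 to 2097 without 1 library. Of the 44 member calls, 44 stayed with the top doublet scores removed, with a 10% mitochondrial filter, with a prior of 5 UMIs and without shared barcodes. There were 43 of 44 with doublet-rich subclusters kept, 42 of 44 with equal weight per cell, 38 of 44 in cells of low dissociation share, and 41 to 43 without 1 library. Leaving the Malat1 cluster out of the rest kept 6 of 6 smooth muscle cluster calls. Every call kept its direction in these settings.

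Clustering mattered more. Between 98.1% and 98.8% of cells kept their class under log-normalized counts and with all genes as clustering features, but of the 20 clusters 4 and 12 had a counterpart (Jaccard index of at least 0.5). At resolutions of 0.2 and 0.5, 13 and 20 had one. In those, the calls kept were 18 of 20 at a resolution of 0.2 and 35 of 38 at 0.5. Log-normalized counts kept 17 of 17 and all genes 29 of 31, of which 6 each were calls between the classes and 11 and 25 calls in fibroblast clusters. None of the 6 smooth muscle cluster calls lay in a matched cluster under either. The calls lost most often were Sparcl1 in the Dpp4 cluster (0.53 at a resolution of 0.5), Cyr61 in the Cfd cluster, Sparcl1 in the Chad cluster, Tnc in the Des cluster (-0.36 at 0.2) and Tnc between the classes (-0.97 without library 1, 2 or 6). Postn in the Dpp4 cluster was -0.67 at a resolution of 0.2 and Fn1 in the Sfrp2 cluster -0.90 at 0.5. The cause was not tested. No paired analysis was possible because the barcode numbers could not be assigned to mice, so CTL and LDS were not compared. The ratios between cell populations were taken within each library. Counts limit Tnc, at 107 to 404 UMIs per library over all cells, and Spp1 in smooth muscle-like cells, at 99 UMIs in all.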

Other observations

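The other matricellular genes and the fibrillar matrix genes also differed between clusters. In the smooth muscle cluster led by Pgam2, where Postn and Tnc were low, Thbs1, which encodes the TGF-β-activating thrombospondin-1, was higher in 6 of 6 libraries (log2 ratio 4.16, range 3.53 to 4.72), as was the CCN gene Wisp1 (log2 ratio 3.18, range 1.42 to 3.45). Tnxb (log2 ratio -1.19, range -1.96 to -0.49) and Smoc2 (log2 ratio -1.79, range -2.01 to -1.13) were lower there. In all, the matricellular relatives had 3 higher and 3 lower among 10 of 22 genes tested. Their median log2 ratio was -0.38, against -0.08 over all genes, of which 6.59% were called in either direction. In the largest smooth muscle cluster 9 of 22 were tested, so Wisp1 may have entered only through the Pgam2 cluster, where it was high. In the fibroblast cluster led by Chad, where Spp1 was high, Thbs1 (log2 ratio 3.33, range 2.53 to 4.21) and Thbs4 (log2 ratio 5.37, range 3.63 to 6.18) were higher and Smoc2 (log2 ratio -3.54, range -4.33 to -2.53) lower. The relatives had 5 higher and 4 lower among 13 of 22 genes tested there. Their median log2 ratio was -0.40, against -0.08 over all genes, of which 6.5% were called in either direction.

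The fibroblast cluster led by Cd74 and H2-Eb1, where Postn was high and 4 members were low, had 1 higher and 7 lower among 12 of 22 genes tested, median log2 ratio -1.77, against 0.08 over all genes. Over all genes, 10.5% were called there in either direction. Thbs1 was the gene called higher (log2 ratio 1.54, range 0.44 to 3.34). Of its fibrillar matrix genes, 9 of 16 were called lower and 0 higher, among them the elastin gene Eln (log2 ratio -3.24, range -4.38 to -1.92) and the crosslinking enzyme gene Lox, while Dcn (log2 ratio 0.04, range -0.29 to 0.28) and Lum (log2 ratio -0.19, range -0.58 to 0.28) were not called. In the cluster led by Dpp4 the relatives had 1 higher and 6 lower among 12 of 22 genes tested, median log2 ratio -0.74. All genes there had a median of 0.08, and 5.78% were called in either direction. In the cluster led by Mia the relatives had 2 higher and 7 lower among 13 of 22 genes tested, median log2 ratio -1.07. All genes there had a median of 0.05, and 5.94% were called in either direction. These counts describe clusters drawn from the same cells and were not tested.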
